A study of Ovis aries with 40 samples.

Results

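Within the high muscling class of sheep, the progeny of sire 2 (7 animals) were compared with the progeny of sire 7 (4 animals), on the basis of gene expression in LM muscle. The 11 animals were chosen from 40 by the sire named in their titles. All 40 were progeny of 6 Poll Dorset sires, in which 3 sires were extreme for high and 3 for low muscling by the estimated breeding value for eye muscle depth, and sire 11, with 8 animals, was the remaining sire of the high class. The animals were 78 weeks of age, and no treatment or allele distinguishes the families in the labels. Total RNA of the longissimus muscle of each animal, taken after euthanasia and frozen, was hybridised to 1 GeneChip Bovine Genome microarray, so probes designed on cattle sequence measured RNA of sheep. Each family represents a single sire, the dams are not given, and progeny of 1 sire share a father, so the animals of a family are related. A difference between the families is therefore a difference between these progeny groups and cannot be told apart from that of a batch, since the labels give no date, batch, sex or slaughter group.

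The LM muscle runs along the back and is the muscle whose depth is scanned to estimate muscling in meat sheep. It is mostly made of fast fibres, which contract through fast isoforms of myosin and troponin, with a share of slow, oxidative fibres that use other isoforms. Muscle mass depends on the balance of protein synthesis, promoted by insulin-like growth factors, and breakdown by the proteasome, lysosomes and calpains. Myostatin, encoded by MSTN, restrains muscle growth, and variants of it are a known source of heavier muscling in sheep.

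The values were MAS5 signals, which state the brightness of a probe set on a linear scale and had been scaled per array to a trimmed mean of 200. Where several probe sets stood for a gene, the brightest over the 40 arrays was used, and genes whose mean signal reached a detection minimum of 61.8, the level of the median probe set, were tested on the log2 scale (6360 genes). CKM, the muscle creatine kinase, had signals of 27433 to 34623 in sire 2 progeny and 26169 to 31338 in sire 7 progeny, and MYH1, a fast myosin heavy chain, 21741 to 25380 and 20621 to 23652. The slow myosin MYH7, skeletal actin ACTA1 and myoglobin MB also had signals of at least 16025 in all 11 animals, so the markers of skeletal muscle were present throughout. No probe set carried the name MYH2 in the annotation used here. Some markers of other cells had a mean signal under the detection minimum. These were CD79A and CD2 of lymphocytes, ALAS2 and HBB of erythroid cells and LEP of adipocytes. Others of these cells reached it, namely CD3D and CD3E of lymphocytes, HBA of erythroid cells and ADIPOQ, CIDEC and FABP4 of adipocytes. So did CD14, CD68 and CSF1R of myeloid cells, and PECAM1 of endothelium was between 808 and 1395. In whole muscle, fewer cells of a type and less RNA per cell cannot be told apart.

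The 2 families were not separated by their arrays as a whole. The Pearson correlation between 2 arrays over the genes tested had a median of 0.939 among sire 2 progeny (21 pairs), 0.942 among sire 7 progeny (6 pairs) and 0.940 between the families (28 pairs). These pairs share arrays and are given as a description. No 2 arrays were copies, since at most 0.269% of their values were equal. The median signal of an array was 59.8 to 66.9 in sire 2 progeny and 65.6 to 66.95 in sire 7 progeny.

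The actin control differed between the families. The log2 ratio of the 3′ to the 5′ actin control, which is lower where the 5′ end of the transcript is better represented, was 0.00889 ± 0.0654 (SD, n = 7) in sire 2 progeny and -0.155 ± 0.0579 (SD, n = 4) in sire 7 progeny, without overlap (two-sided exact permutation p = 0.00303, the smallest that 330 arrangements can give, and adjusted p = 0.0242 over 8 quality values). The 3′ actin control itself was 27170 ± 2424 and 22031 ± 2051 (exact permutation p = 0.00909, adjusted p = 0.0364). The ratio of the GAPDH control was 0.252 ± 0.104 and 0.274 ± 0.0610 (exact permutation p = 0.718). None of the other 5 quality values passed an adjusted p of 0.05, and the lowest of these was 0.137 for a spiked control. The part of the actin ratio in the gene differences was not tested as a cause, and results that move when the ratio is a covariate are named below. Since the ratios of the families do not overlap, a fit with the ratio as a covariate cannot part the ratio from the family.

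No gene passed the test between the families. Of the 6360 genes, 0 (0%) had an adjusted p under 0.05 in limma with Benjamini-Hochberg adjustment, and the smallest adjusted p was 0.916. At an unadjusted p under 0.05 there were 324 genes (5.09%), of which 170 (2.67%) were higher in sire 2 progeny and 154 (2.42%) were higher in sire 7 progeny. With the arrays centred on their medians, the split was 218 higher in sire 2 and 114 higher in sire 7 progeny. In 37 genes (0.582%) the signals of the families did not overlap, with sire 2 progeny higher in 22 (0.346%) and sire 7 progeny higher in 15 (0.236%). Differences are given as sire 2 minus sire 7 on the log2 scale, and over all genes they had a median of -0.0144, a 5th percentile of -0.48 and a 95th percentile of 0.43. The extremes were CCDC162P (-1.69), of which the signal was 4.90 to 115 in sire 2 progeny and 70.2 to 120 in sire 7 progeny, and KIR2DL5A (1.84), with 54.1 to 133 and 6.5 to 68.9. Both had overlapping families and were chosen after their values were seen. The median signal was under the detection minimum for CCDC162P in sire 2 progeny (33.1) and for KIR2DL5A in sire 7 progeny (34.35). A second, dimmer probe set of KIR2DL5A had a difference of -0.67, in the opposite direction.

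**Figure D1:**
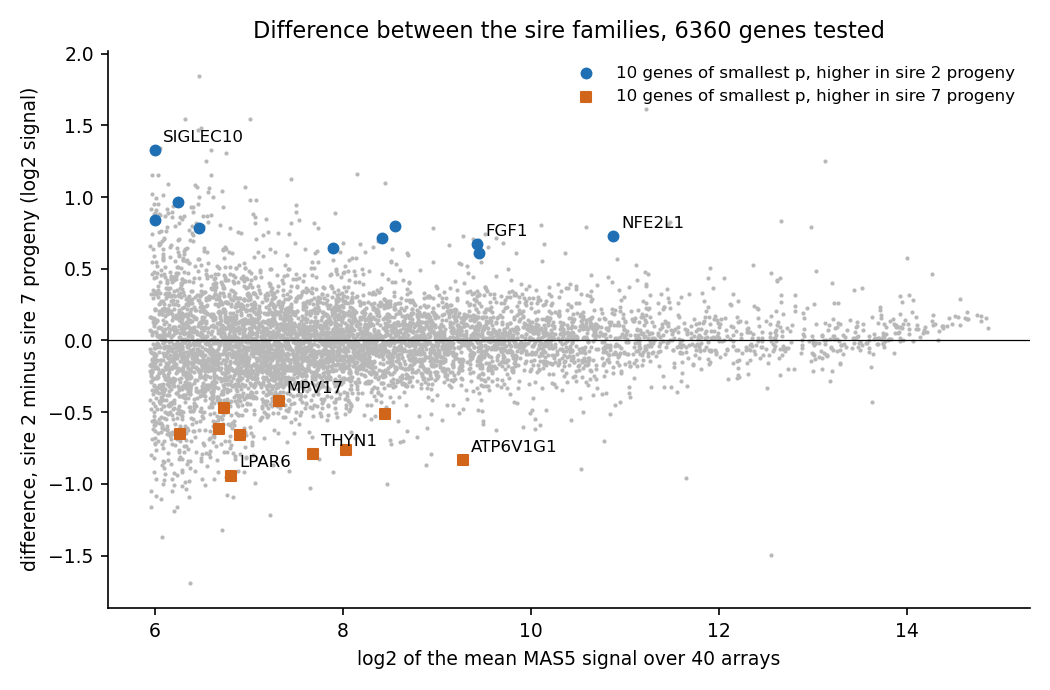
Each point is 1 of 6360 genes, with the log2 of its mean signal over 40 arrays on the horizontal axis and the log2 difference, sire 2 minus sire 7 progeny, on the vertical axis. The coloured points are the 10 genes of smallest p in each direction, none of which passed an adjusted p of 0.05, and differences beyond 1 are mostly among genes of low signal.

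The intervals show which differences these 11 arrays could still hold. The limits of a gene's 95% interval lay a median of 0.435 from its estimate, and this distance was 0.668 for the 1207 genes with a mean signal under 100, 0.424 for the 4048 genes between 100 and 1000 and 0.317 for the 1105 genes over 1000. In 5283 genes (83.1%) the whole interval lay between -1 and 1, so a 2-fold difference was outside it in either direction. For the other genes a difference of that size was within the interval. The SD of a gene's log2 signal had a median of 0.318 within sire 2 progeny and 0.292 within sire 7 progeny.

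With the spread estimated from all 40 arrays and 1 mean per sire, 0 of the 6360 genes were called between sires 2 and 7 as well, and 355 had an unadjusted p under 0.05. The smallest adjusted p was 0.115, for THYN1. In the same fit, each of the other 14 pairs of sires had at least 2 genes called. Sire 2 against sire 11, within the same muscling class, had 963 and sire 7 against sire 11 had 671, whereas sires 16 and 5, both of the low class, had 2. The median absolute log2 difference was 0.1499 between sires 2 and 7, 0.225 between sires 2 and 11, 0.246 between sires 7 and 11 and 0.120 between sires 16 and 5. The pairs share arrays and differ in the number of animals, and no test compared their counts.

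The 10 genes of smallest p that were higher in sire 7 progeny were led by THYN1, ATP6V1G1 and TSPYL1. THYN1 (gene 616441), a nuclear protein first described in thymocytes, had signals of 102 to 190 with a median of 138 in sire 2 progeny and of 225, 282, 228 and 225 in sire 7 progeny 18, 58, 69 and 98. All 4 sire 7 progeny were above all 7 sire 2 progeny. The difference was -0.79 ± 0.17 (SE; limma, adjusted p = 0.916), and in the other 29 animals of the series the signal was 98.8 to 301.

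ATP6V1G1 (gene 281641), a subunit of the proton pump that acidifies lysosomes, had 287 to 536 with a median of 410 in sire 2 progeny and 760, 861, 505 and 806 in sire 7 progeny. The families overlapped only through progeny 69 of sire 7, which was below the highest sire 2 animal. The difference was -0.84 ± 0.19 (SE; limma, adjusted p = 0.916), that is 1.79-fold, with a 95% interval of -1.25 to -0.42.

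TSPYL1 (gene 538541), a nuclear protein related to nucleosome assembly factors, had 49.0 to 83.4 with a median of 75.6 in sire 2 progeny and 111, 108, 137 and 99.5 in sire 7 progeny, with no overlap and a difference of -0.66 ± 0.16 (SE), and its second, dimmer probe set had a difference of 0.30 in the opposite direction. LPAR6 (gene 782518), a receptor for lysophosphatidic acid, had 51.5 to 97.7 with a median of 65.6 in sire 2 progeny and 79.1, 147, 141 and 181 in sire 7 progeny, and progeny 18 of sire 7 lay within the range of sire 2. PI4KA (gene 282309), the kinase that forms phosphatidylinositol 4-phosphate, had 278 to 387 with a median of 351 in sire 2 progeny and 483, 453, 593 and 402 in sire 7 progeny, again with no overlap. The other 5 genes of this group were MPV17, a protein of the inner mitochondrial membrane, CD200, a surface glycoprotein, LENG1, VPS50, which acts in the recycling of endosomes, and ALG13, which acts in N-glycosylation. Their differences were -0.42 (MPV17), -0.76 (CD200), -0.65 (LENG1), -0.47 (VPS50) and -0.62 (ALG13), each with adjusted p = 0.916 in limma. VPS50 alone of these 5 had overlapping families. Over all genes, 0.236% did not overlap with sire 7 progeny higher. As the genes were picked by their p in this comparison, the lack of overlap adds no support. The second probe sets of VPS50 and LENG1 had differences of -0.013 and -0.68. The sire 2 median of LENG1 (55.9) was under the detection minimum, as were the lowest sire 2 signals of LPAR6 and TSPYL1.

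The 10 genes of smallest p that were higher in sire 2 progeny were led by FGF1, NFE2L1 and ACSL3. FGF1 (gene 281160), an acidic fibroblast growth factor, had signals of 640 to 1045 with a median of 871 in sire 2 progeny and of 563, 387, 595 and 552 in sire 7 progeny. The families did not overlap, and the difference was 0.67 ± 0.17 (SE; limma, adjusted p = 0.916), that is 1.59-fold. FGF1 has 12 probe sets, which disagreed, and their mean gave a difference of -0.12.

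NFE2L1 (gene 534582), a transcription factor known to drive the genes of the proteasome, had 1872 to 3089 with a median of 2275 in sire 2 progeny and 1318, 1436, 1802 and 1283 in sire 7 progeny. The lowest sire 2 animal was above the highest sire 7 animal, and the difference was 0.73 ± 0.18 (SE; limma, adjusted p = 0.916). Its second probe set, of lower signal, had a difference of 0.20.

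KAT8 (gene 100125883), an acetyltransferase of histone H4, had 548 to 923 with a median of 639 in sire 2 progeny and 444, 472, 428 and 437 in sire 7 progeny. The sire 7 animals lay close together (SD 0.0598 on the log2 scale, against 0.319 in sire 2) and below all sire 2 animals. MBD1 (gene 540558), which binds methylated DNA, had 196 to 376 with a median of 296 and 160, 195, 179 and 190, where the highest sire 7 animal was just under the lowest sire 2 animal, and a second, dimmer probe set of MBD1 had a difference of -0.36 against 0.64.

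ACSL3 (gene 100138312), which activates long-chain fatty acids, had 291 to 517 with a median of 393 in sire 2 progeny and 220, 201, 229 and 332 in sire 7 progeny, of which progeny 98 lay within the range of sire 2. SIGLEC10 (gene 504258), a lectin of leukocytes, had 50.4 to 90.3 in sire 2 progeny and 10.8, 28.0, 22.8 and 57.4 in sire 7 progeny. As 5 of 7 sire 2 signals and 4 of 4 sire 7 signals were under the detection minimum, its fitted difference of 1.33 ± 0.36 (SE) rests on dim signals. The remaining 4 genes were KCNRG (0.84), PDXDC1 (0.79), RNASEH1 (0.80), which removes RNA from hybrids with DNA, and SDF2L1 (0.96), a chaperone component of the endoplasmic reticulum, each with adjusted p = 0.916 in limma. Of these 4, the families overlapped in all but PDXDC1. Over all genes, 0.346% did not overlap with sire 2 progeny higher. These genes too were picked by their p, so a lack of overlap adds no support. All sire 7 signals were under the detection minimum in KCNRG (45.6 to 53.4) and SDF2L1 (27.8 to 55.4). In PDXDC1 the signals of sire 7 progeny 18, 58 and 98 were under it (34.1 to 57.4), and that of progeny 69 was above it (78.4). The differences of KCNRG, SDF2L1 and PDXDC1 thus rest partly on dim signals. A second, dimmer probe set of RNASEH1 had a difference of 0.09 against 0.80.

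**Figure D2:**
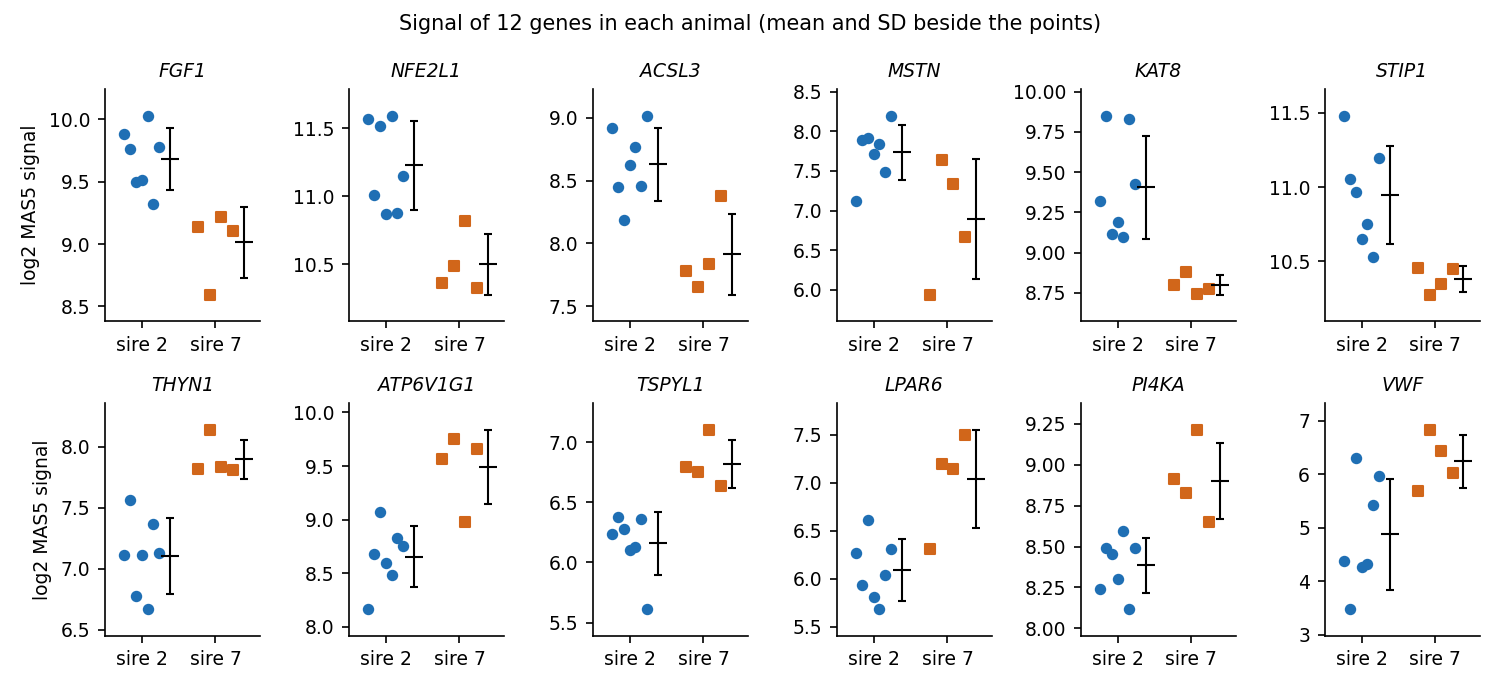
Log2 MAS5 signal of 12 genes in each of 7 sire 2 progeny (circles) and 4 sire 7 progeny (squares), with the family mean and SD as a bar beside the points. The upper row shows genes with a higher mean in sire 2 progeny and the lower row genes with a higher mean in sire 7 progeny, and none passed an adjusted p of 0.05.

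The known regulators of muscle growth were next considered. MSTN (gene 281187), which encodes myostatin, had signals of 139 to 293 with a median of 228 in sire 2 progeny and of 61.4, 199, 161 and 102 in sire 7 progeny. Progeny 18 and 98 of sire 7 were below all sire 2 animals, and progeny 58 and 69 lay within their range. The difference was 0.84 ± 0.30 (SE; limma, adjusted p = 0.916), that is 1.79-fold, with a 95% interval of 0.19 to 1.49, and the second probe set of MSTN had a difference of 0.65.

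IGF1 (gene 281239), the insulin-like growth factor that promotes muscle growth, had 238 to 450 with a median of 340 in sire 2 progeny and 368, 375, 319 and 343 in sire 7 progeny. The sire 7 animals lay inside the range of sire 2, and the interval of the difference was -0.43 to 0.28. CAST (gene 281039), the inhibitor of calpains, had an interval of -0.62 to 0.47, and the direction of its difference of -0.08 turned in several alternatives. FBXO32 (gene 513776), a ubiquitin ligase of muscle atrophy, spread from 113 to 3331 among sire 2 progeny and from 468 to 2693 among sire 7 progeny, and its interval of -1.86 to 1.67 leaves differences above 2-fold in either direction within it. For TRIM63, the other ligase of muscle atrophy, no probe set carried the name in that annotation.

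Over the 33 tested genes of growth factor signalling, 17 had a difference above 0 and 2, FGF1 and MSTN, had an unadjusted p under 0.05, and 0 were called. Over all genes, 47.01% had a difference above 0 and 5.09% had an unadjusted p under 0.05. The list had a median of 0.0273, beside -0.0144 over all genes. Over the 32 tested genes of atrophy and autophagy, 21 had a difference above 0, and the median was 0.0836. The list thus leaned to sire 2 progeny, but the 2 genes with an unadjusted p under 0.05 were both higher in sire 7 progeny. Of all genes, 2.42% were higher in sire 7 progeny at that level. EIF4EBP1 (gene 509613), which binds the cap-binding factor and restrains translation, had 255 to 406 with a median of 325 in sire 2 progeny and 587, 354, 409 and 649 in sire 7 progeny, with a difference of -0.63 ± 0.19 (SE; limma, adjusted p = 0.916). SQSTM1, the autophagy receptor p62, had a difference of -0.51 ± 0.22 (SE), and its second probe set had one of 0.04.

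Of 35 gene lists of muscle functions and cell types, with 888 distinct genes tested, 0 genes were called and 32 had an unadjusted p under 0.05, a level that 5.09% of all genes reached. The median difference was above 0.1 in 8 lists and below -0.1 in 3, and the medians of the other 24 lay between -0.0758 and 0.0967. These medians are descriptions of the lists, without a test, and genes of a list vary together between animals.

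The list of heat shock proteins and chaperones, which fold and rescue proteins under stress, had 26 of 27 tested genes with a difference above 0, where 47.01% of all genes had one. Its median was 0.287, and 6 genes had an unadjusted p under 0.05, all higher in sire 2 progeny, where 2.67% of all genes were. Of the list, 0 genes were called. STIP1 (gene 617109), which links the chaperones HSP70 and HSP90, had signals of 1478 to 2858 with a median of 1999 in sire 2 progeny and of 1401, 1239, 1302 and 1395 in sire 7 progeny. The families did not overlap, and the difference was 0.57 ± 0.18 (SE; limma, adjusted p = 0.916).

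BAG3, which clears damaged proteins at the Z-disc, had 1437 to 1967 with a median of 1498 in sire 2 progeny and 1370, 1228, 1340 and 1070 in sire 7 progeny, also without overlap. The small heat shock proteins HSPB1 and CRYAB had differences of 0.46 ± 0.18 and 0.58 ± 0.24 (SE), HSPH1 had 0.68 ± 0.31 and HSP90AA1 had 0.36 ± 0.17, and in each of these genes the families overlapped. The second probe sets had differences of 0.11 for HSP90AA1, 0.69 for HSPH1 and -1.01 for HSPB1, the last with a mean signal of 36.5. HSPA1A, the inducible HSP70, had 1546 to 2919 in sire 2 progeny and 1829 to 2749 in sire 7 progeny, with a difference of 0.05 ± 0.18 (SE). The interval of the HSPA1A difference, -0.34 to 0.44, overlaps that of STIP1, 0.19 to 0.95.

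The mean log2 signal of the 27 genes was 10.63, 10.25, 10.21, 10.59, 9.95, 10.33 and 10.40 in sire 2 progeny 3, 46, 47, 5, 57, 62 and 66, and 10.11, 9.76, 10.30 and 9.93 in sire 7 progeny 18, 58, 69 and 98. The families overlapped, with sire 2 progeny 46, 47 and 57 inside the range of sire 7, and progeny 69 of sire 7 was the highest of its family. The median difference of the list stayed between 0.201 and 0.408 in all 25 alternatives, and with the actin 3′ to 5′ ratio as a covariate it was 0.408, with 27 of 27 genes above 0. As the families do not overlap in that ratio, the fit with it cannot part the ratio from the family. Without progeny 98 of sire 7, 1 gene had an unadjusted p under 0.05, and without progeny 69 of sire 7, 10 had.

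The list of Z-disc and sarcomere scaffold genes had a median of 0.140. A difference above 0 was found in 20 of its 27 genes, where 47.01% of all genes had one. Where 2.67% of all genes were higher in sire 2 progeny at an unadjusted p under 0.05, the list had 6 genes, all in that direction. These were DES, CRYAB, ACTA1, SMPX, ACTC1 and ACTN2, of which CRYAB is also in the heat shock list. DES (gene 280765), the muscle intermediate filament, had 11687 to 15640 with a median of 12933 in sire 2 progeny and 12922, 10569, 10598 and 7876 in sire 7 progeny. Progeny 18 of sire 7 lay near the median of sire 2, and progeny 98 had the lowest signal of the 11 animals.

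ACTC1, the cardiac actin that is also expressed in developing and regenerating skeletal muscle, had 2316 to 20906 with a median of 10822 in sire 2 progeny and 2081, 4569, 6853 and 2447 in sire 7 progeny. The families overlapped, progeny 47 of sire 2 being close to the lowest sire 7 animals, and the difference of 1.25 ± 0.55 (SE) had an interval of 0.06 to 2.45. ACTA1, the skeletal actin, had a difference of 0.29 ± 0.12 (SE), beside which stand the lower 3′ actin control signals of sire 7 progeny given above, since that control also measures actin. With quantile normalization the median of the list was 0.0441 and 2 genes had an unadjusted p under 0.05, and without progeny 98 of sire 7, 1 had.

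The fast fibre list had 7 of 9 genes and the slow fibre list 8 of 10 genes with a difference above 0, against 47.01% of all genes. Their medians were 0.151 and 0.101, and 0 genes had an unadjusted p under 0.05, a level that 5.09% of all genes reached. With quantile normalization these medians were -0.0151 and -0.0195, so their direction depended on the scaling. TNNI2, the fast troponin I, had 26373 to 32425 with a median of 29967 in sire 2 progeny and 26411, 28777, 24749 and 24552 in sire 7 progeny. The families overlapped, and the interval of the difference was -0.06 to 0.42. ATP2A2, the calcium pump of slow fibres, had 14280 to 18993 with a median of 15418 in sire 2 progeny and 15482, 14226, 11576 and 14093 in sire 7 progeny, and its interval was -0.06 to 0.48.

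The proteasome list had 29 of 32 genes with a difference above 0, against 47.01% of all genes, and a median of 0.117. In 1 gene, PSME4, the unadjusted p was under 0.05, a level that 5.09% of all genes reached. PSME4 (gene 528142), a proteasome activator, had 1686 to 2689 with a median of 1918 in sire 2 progeny and 1447, 1602, 1618 and 1431 in sire 7 progeny, with no overlap and a difference of 0.39 ± 0.15 (SE; limma, adjusted p = 0.916). With the actin 3′ to 5′ ratio as a covariate, 22 of 32 genes were above 0 with a median of 0.0428, and without progeny 98 of sire 7, 24 were, with a median of 0.0539. The fit with the ratio cannot part it from the family, since the families do not overlap in it.

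The lists of energy metabolism and of the ribosome had medians near 0. Of 76 tested genes of oxidative phosphorylation, 0 had an unadjusted p under 0.05, a level that 5.09% of all genes reached, and the median was -0.0243. The tricarboxylic acid cycle had a median of -0.0645 over 21 genes, and glycolysis -0.0143 over 19. DLAT (gene 512723), a subunit of the pyruvate dehydrogenase complex, was the exception in the cycle list, with 1004 to 2385 and a median of 1211 in sire 2 progeny and 1696, 2639, 2566 and 2128 in sire 7 progeny, a difference of -0.70 ± 0.25 (SE; limma, adjusted p = 0.916) and overlapping families. Of 64 cytosolic ribosomal proteins, RPL38 alone had an unadjusted p under 0.05, with a difference of -0.43 ± 0.13 (SE), and the median was 0.0187.

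The immediate early list, of genes induced within minutes of a stimulus, had the lowest median, -0.236. A difference above 0 was found in 5 of its 23 genes, against 47.01% of all genes. An unadjusted p under 0.05 was found in 0 of them, against 5.09% of all genes. FOS (gene 280795) had 5854, 396, 1251, 9505, 2076, 2265 and 8443 in sire 2 progeny 3, 46, 47, 5, 57, 62 and 66, and 6198, 7051, 7002 and 11201 in sire 7 progeny 18, 58, 69 and 98. All sire 7 animals were at 6198 or above, as were progeny 5 and 66 of sire 2, while the other sire 2 progeny lay below them. The difference was -1.49 ± 0.75 (SE; limma, adjusted p = 0.916). DUSP1 and EGR1 showed the same kind of spread in sire 2, with 454 to 5362 and 142 to 1998, against 2225 to 5101 and 655 to 1582 in sire 7. With the actin 3′ to 5′ ratio as a covariate the median of the list was 0.00996, with 12 of 23 genes above 0. That fit cannot part the ratio from the family, since the families do not overlap in it.

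**Figure D3:**
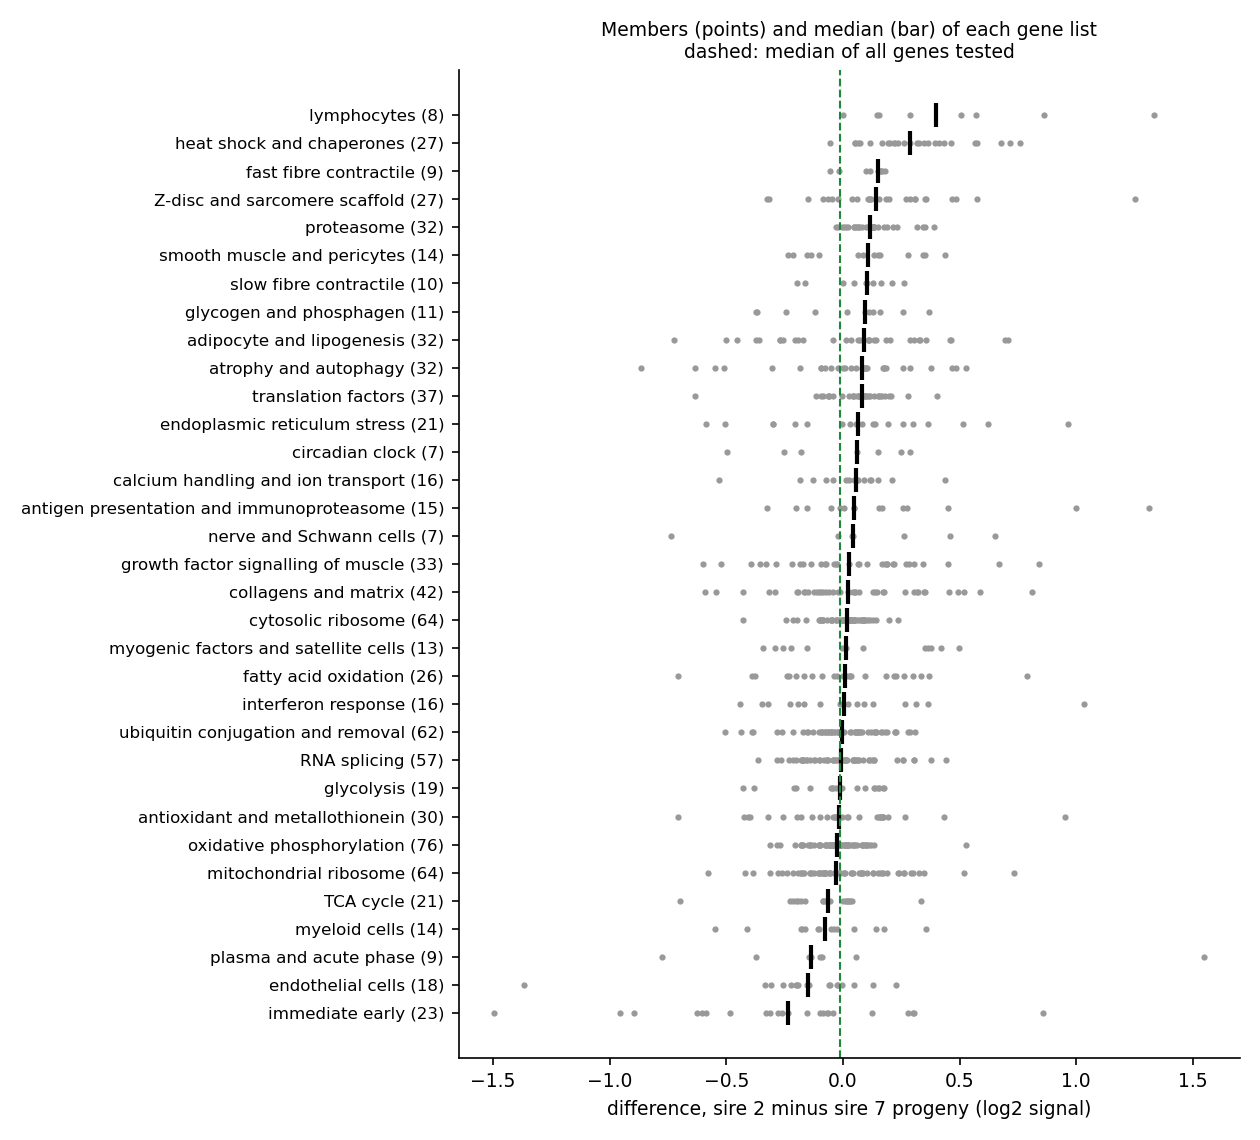
Each row is a gene list with the number of genes tested, for lists of at least 7 tested genes. Points are the log2 differences of its genes, sire 2 minus sire 7 progeny, the bar is their median, and the dashed line is the median of all 6360 genes, -0.0144. The heat shock list lies almost wholly to the right of 0 and the immediate early and endothelial lists mostly to the left.

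Markers of other cell types were compared in the same way. The endothelial list had 3 of 18 genes above 0, against 47.01% of all genes, and a median of -0.149. VWF and ERG, both higher in sire 7 progeny, had an unadjusted p under 0.05, as 2.42% of all genes did in that direction. VWF (gene 280958), the von Willebrand factor, had 11.2 to 78.5 with a median of 20.9 in sire 2 progeny and 51.5, 113, 86.8 and 65.2 in sire 7 progeny. In 5 of 7 sire 2 progeny the signal was under the detection minimum, at 11.2 to 43.1. ERG, a transcription factor of endothelium, had a difference of -0.34, and its second probe set had 0.17. The summed signal of the list was 6233 to 8633 and 7839 to 9262, and the defining markers PECAM1 and CDH5 had overlapping families with differences of -0.15 and -0.02.

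Of 18 measured genes of the lymphocyte list, 8 reached the detection minimum and were tested. A difference above 0 was found in 8 of these 8, against 47.01% of all genes, with a median of 0.398. In 1 gene, CD4, the unadjusted p was under 0.05, a level that 5.09% of all genes reached. CD4 (gene 407098), of helper T cells, had 56.6 to 133 with a median of 91 in sire 2 progeny and 71.7, 28.6, 51.2 and 44.6 in sire 7 progeny, and its second, dimmer probe set had a difference of -0.15 against 0.86. CD3E, a defining marker of T cells, had 277 to 444 and 229 to 391, with a difference of 0.29 ± 0.19 (SE). The lowest signals of sire 2 and sire 7 progeny were 19 and 7.1 in CD3D and 69.4 and 3.6 in IL2RG. Part of the differences of the list thus rests on signals under the detection minimum, as in CD4. The median of the list moved with single animals and was 0.190 without progeny 58 of sire 7, 0.102 without progeny 98 of sire 7 and 0.675 without progeny 69 of sire 7. The list of myeloid cells (median -0.0758, 4 of 14 genes above 0) and that of adipocytes (0.0889, 20 of 32) had 0 genes at an unadjusted p under 0.05.

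In the lists of immune function, plasma proteins, nerve and matrix, the genes described were the members with the smallest unadjusted p of each list, and none passed the test after adjustment. BOLA-DMB (gene 282491), which loads peptides on class II molecules of the major histocompatibility complex, had 26.8 to 175 with a median of 125 in sire 2 progeny and 18.4, 22.9, 114 and 29.2 in sire 7 progeny, a difference of 1.31 ± 0.63 (SE; limma, adjusted p = 0.916). IFIT2 (gene 527528), which is induced by interferon, had 59 to 196 with a median of 112 in sire 2 progeny and 56.3, 39.1, 134 and 31.7 in sire 7 progeny, a difference of 1.03 ± 0.40 (SE). In both genes progeny 69 was the sire 7 animal with the highest signal and lay within the range of sire 2. The signals of the other sire 7 progeny were under the detection minimum in both genes, so these differences rest on dim signals.

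HP (gene 280692), the plasma protein haptoglobin, had 7.2 to 125 with a median of 59.2 in sire 2 progeny and 5.9, 31.5, 29.1 and 5.1 in sire 7 progeny. The interval of its difference of 1.55 was -0.20 to 3.30. All sire 7 signals of HP and its sire 2 median were under the detection minimum, so this difference rests on dim signals. CHRNB1 (gene 282179), a subunit of the acetylcholine receptor of the neuromuscular junction, had a difference of 0.65 ± 0.28 (SE), and ASPN (gene 507990), a small proteoglycan of the matrix, had -0.43 ± 0.18 (SE). In each of these 3 genes the families overlapped. The lists of interferon response, antigen presentation and collagens and matrix had medians of 0.00552, 0.0491 and 0.0228, against -0.0144 over all genes tested. The list of nerve and Schwann cells had a median of 0.0428. That of plasma and acute phase proteins had -0.138, with 2 of 9 genes above 0, so most of its genes went the other way from HP.

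The first 2 components of variation among the 11 arrays did not separate the families, whereas scores on the third leaned by family. In a principal component analysis of the log2 signals, the first component carried 16.8% of the variance. Its scores were 18.1, 19.7 and 19.4 in sire 2 progeny 5, 62 and 66 and 17.5 in sire 7 progeny 69, and between -15.9 and -5.003 in the other 7 animals. Both families thus had animals at each end. The second component, with 12.4% of the variance, set apart progeny 3 of sire 2 at 34.8, where the other animals had scores between -14.7 and 2.69. The third carried 10.7% of the variance, and its scores were 16.9, 4.80, 4.01 and 12.5 in sire 7 progeny 18, 58, 69 and 98. In sire 2 progeny they were -28.7 in progeny 46, between -5.56 and -3.35 in progeny 3, 47, 5 and 66, 3.38 in progeny 62 and 6.11 in progeny 57. All sire 2 progeny but progeny 57 were thus below all sire 7 progeny on the third component, and this lean was not tested.

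**Figure D4:**
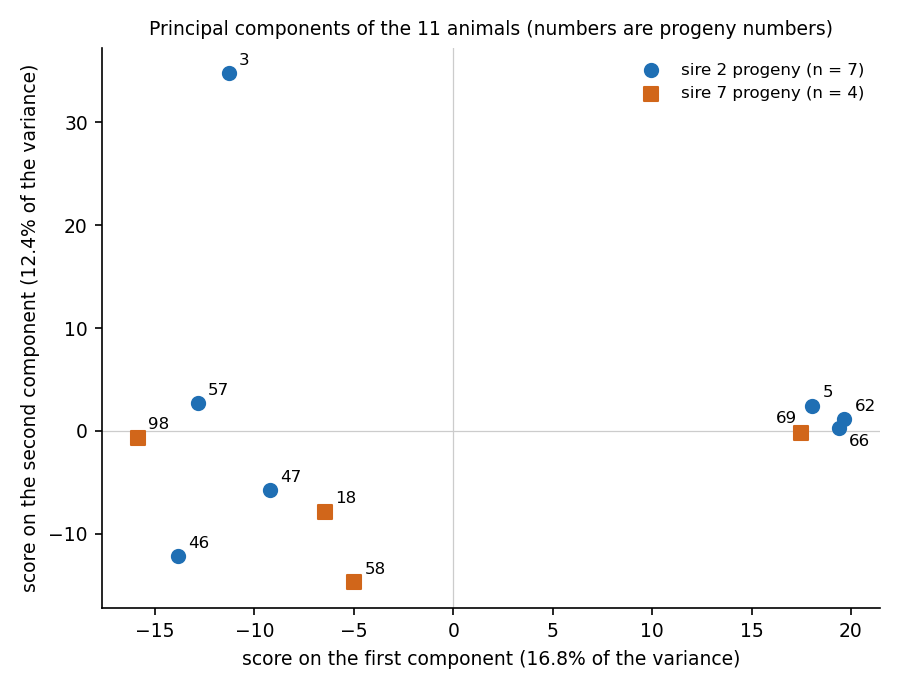
Scores of the 11 animals on the first (horizontal) and second (vertical) principal component of the log2 signals, with progeny numbers beside the points, circles for sire 2 and squares for sire 7. Sire 2 progeny 5, 62 and 66 and sire 7 progeny 69 stand at 17.5 to 19.7 on the first component, apart from the other 7 animals, and progeny 3 of sire 2 stands at 34.8 on the second.

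The genes of largest weight at the high end of the first component were PDK4, CEBPD, ANGPTL4, RASD1 and FKBP5, and those at the low end were DGAT2, ADIPOQ, ST6GALNAC6, SCD and SORBS2. These genes, and FABP3, were chosen after their values were seen. PDK4 (gene 507367), the kinase that turns off pyruvate dehydrogenase in fasting, had signals of 97.6, 3123, 7387, 11729, 1054, 11699 and 10058 in sire 2 progeny 3, 46, 47, 5, 57, 62 and 66, and 6167, 3131, 10498 and 913 in sire 7 progeny 18, 58, 69 and 98. Sire 2 progeny held both the lowest and the highest of the 11 signals, and the difference between the families was -0.21 ± 1.23 (SE).

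CEBPD, a transcription factor induced by glucocorticoids, had 4948, 3019 and 3081 in sire 2 progeny 5, 62 and 66, 1916 in sire 7 progeny 69, and 973 or less in the other animals. FABP3, the fatty acid carrier of muscle, had 7438, 7469 and 14328 in the same sire 2 progeny and 7429 in sire 7 progeny 69, and 4556 or less in the others. At the other end, ADIPOQ, the hormone adiponectin of fat cells, had 35, 89.8 and 40.6 in sire 2 progeny 5, 62 and 66 and 8.70 in sire 7 progeny 69, and 133 to 753 in the others. SCD, the desaturase of fat synthesis, had 288, 309 and 460 in these sire 2 progeny, and sire 7 progeny 69, 18 and 58 had 365, 360 and 357, whereas progeny 98 of sire 7 had 1836.

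XIST (gene 338325), the RNA that silences an X chromosome in females, had the largest spread of all genes in both families. Its signal was 18, 40 and 7.2 in sire 2 progeny 3, 47 and 5 and 1257, 969, 981 and 1053 in progeny 46, 57, 62 and 66, and in sire 7 progeny it was 11.7, 1177, 689 and 59.5 in progeny 18, 58, 69 and 98. Low and high values thus occurred in both families, and the next 3 probe sets of XIST had the same animals high. The labels give no sex, and the signals do not follow the first component, since progeny 5 of sire 2, at 18.1, had the lowest XIST signal. With the log2 signal of XIST as a covariate 0 genes were called between the families and 336 had an unadjusted p under 0.05, and with the score on the first component 0 and 383. Both alternatives were chosen after the data were seen.

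**Figure D5:**
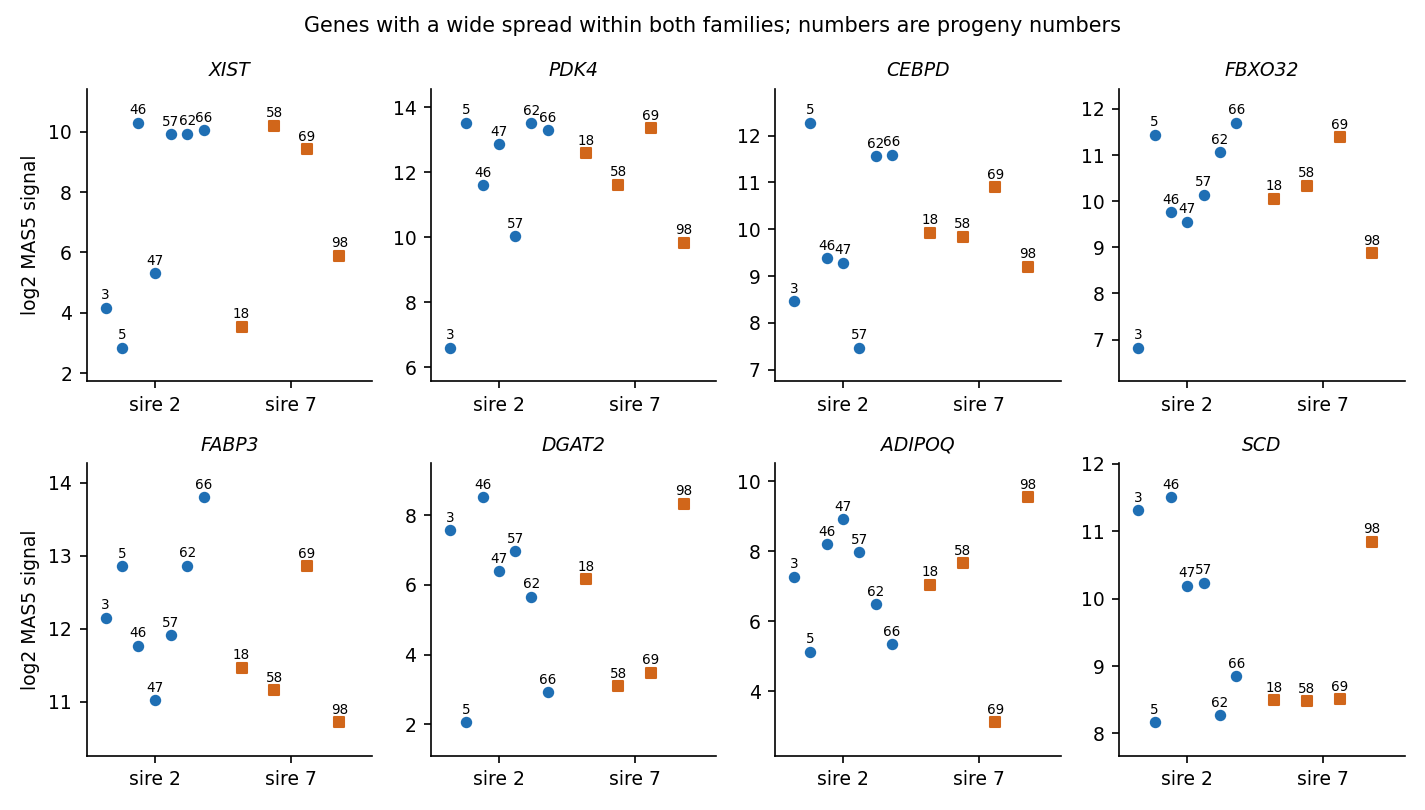
Log2 MAS5 signal of 8 genes in each animal, with progeny numbers above the points, circles for sire 2 and squares for sire 7 progeny. In each gene the values of both families cover much of the same range, XIST falls into low and high values in both, and sire 2 progeny 5 and 66 and sire 7 progeny 69 are high in PDK4 and CEBPD and low in DGAT2 and ADIPOQ.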

How the data were processed

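The authors deposited 1 table of MAS5 signal intensities on a linear scale for 40 arrays of the GeneChip Bovine Genome array (24128 probe sets, of which 112 are controls), each scaled to a mean of 200 over the middle 96% of its values. The version of MAS5 is not given in the sources used here. The GEO platform annotation gives 1 symbol to 13292 probe sets, which stand for 9155 genes, of which 6360 reached a mean signal of 61.8 and were tested. Precision is limited by the number of arrays.

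The families were taken from the titles. Log2 signals of the 11 arrays were fitted in limma 3.58.1 (lmFit and eBayes, R 4.3.3), with 9 residual degrees of freedom and no covariate. The tests were two-sided, with Benjamini-Hochberg adjustment over all genes tested, and genes were called at an adjusted p under 0.05. The procedure was tested on simulated data in which genes and animals varied independently. That test does not cover related animals or genes that vary together. The methods state no test between sires. The p-values treat the progeny of a sire as independent. The 8 quality values were tested by exact permutation. Figures were drawn with matplotlib. The genes named are the 10 of smallest p in each direction, for each list the gene of smallest p, the 5 genes of largest SD in each family, and MSTN, IGF1, CAST, FBXO32 and TRIM63, unless said otherwise. Further members of the lists described were added with their values known. The families compared, the genes and the 35 lists were chosen with earlier results of these data known. Alternatives covered the arrays in the fit, filters, scaling, low signals, probe sets, array weights, the variance prior, control covariates and each animal left out.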

Additional observations from a re-analysis of the deposited data

Results flagged for a closer look

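Of 138 groups of log2 signals tested for an animal far from its family, 8 held one. Chance gives about 1 in 20 where genes are not chosen on these values, but these were chosen by their p or their spread, SOX10, IRF7 and IL2RG for a large SD in the family named, so that rate does not apply to them. Progeny 58 of sire 7 was above its family in THYN1 (8.14) and in RNASEH1 (8.23), and below it in IL2RG (1.85), a cytokine receptor subunit. Progeny 18 of sire 7 was above its family in ALG13 (7.58), and progeny 98 of sire 7 was below it in IRF7 (1.85), a factor of the interferon response. Progeny 66 of sire 2 was below its family in TSPYL1 (5.61) and in SOX10 (1.58), a marker of Schwann cells, and progeny 5 of sire 2 was below it in UBE2C (7.04). On the linear scale the outlying signals were 3 in SOX10, 3.6 in IL2RG, 3.6 in IRF7 and 49 in TSPYL1, all under the detection minimum. The outliers in SOX10, IL2RG, IRF7 and TSPYL1 thus rest on dim signals. The outlying signals of THYN1, RNASEH1, ALG13 and UBE2C were above that minimum.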

How the results depend on the processing

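All 25 alternatives gave 0 genes called, as did the fit reported, and the number of genes with an unadjusted p under 0.05 was between 251 and 465. The smallest adjusted p was 0.0606, without a filter on the mean signal (9155 genes, for ADAM2). Leaving out each animal in turn gave 272 to 386 genes at an unadjusted p under 0.05. The split of these genes by direction depended on the scaling, with 218 higher in sire 2 and 114 higher in sire 7 progeny after median centring, where the fit reported had 170 and 154. No paired analysis was possible because the progeny numbers are animal numbers that the families do not share.

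Of 1309 differences of 53 named genes under these alternatives, 0 passed the threshold, 1292 kept their direction and 17 reversed. With quantile normalization TNNI2 was -0.015 and RPS4Y1, as the annotation names it, was -0.00988. With all probe sets of a gene averaged FGF1 was -0.12, IGF1 was 0.19 and CAST was 0.17. With array quality weights FBXO32 was 0.064, and with the spiked controls as a covariate IGF1 was 0.020. With the actin 3′ to 5′ ratio as a covariate, in a fit that cannot part the ratio from the family, HBG was -0.0682, RPS4Y1 was -0.033 and CAST was 0.022. Leaving out each animal in turn, IGF1 lay between -0.15 and 0.0056, FBXO32 between -0.53 and 0.45, CAST between -0.34 and 0.079 and RPS4Y1 between -0.0491 and 0.068. The causes were not tested. Dim genes are the least certain, with interval limits a median of 0.668 from the estimate under a mean signal of 100.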
